A study of Mus musculus with 14 samples.

Results

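Bcl6-overexpressing OT-I cells were compared with control OT-I cells from the same tumor model. The comparison rests on 4 of the 14 RNA-seq libraries of the study, 2 of Bcl6-overexpressing and 2 of control cells, chosen by their labels alone. OT-I cells are CD8+ T cells that all carry a transgenic receptor recognizing an ovalbumin peptide, and E.G7 is a mouse lymphoma line that expresses ovalbumin. Both kinds of OT-I cell were transferred together into E.G7 tumor-bearing hosts and sorted by flow cytometry from the tumors on about day 8 after transfer. Their genotype labels read Bcl6-overexpressing and control. The labels do not name the vector of either group, its promoter, the sorting marker or the number of hosts. They do not say that the 2 libraries of a group came from separate animals, so the p-values below measure the spread between these libraries only. The remaining 10 libraries of the study are a matching pair of groups for Prdm1, and Bcl6+, DN and TIM-3+ tumor-infiltrating CD8+ T cells (TILs) taken on day 21 from mice with a Bcl6-RFP reporter.

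Bcl6 is a transcriptional repressor of the BTB zinc finger family. It binds DNA through its zinc fingers and recruits corepressors such as BCOR through its BTB domain. In follicular helper T cells and in memory precursor CD8+ T cells it is opposed by Blimp-1, the repressor that Prdm1 encodes, and each factor holds down the gene of the other. In chronic infection and in tumors, CD8+ T cells that keep TCF-1, the product of Tcf7, renew themselves and give rise to TIM-3+ cells that carry cytotoxic molecules and several inhibitory receptors. TIM-3 itself is encoded by Havcr2. The TCF-1+ cells are known for Slamf6, Cxcr5, Id3 and Xcl1, a chemokine that attracts cross-presenting dendritic cells.

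The deposited counts summed to 20256422 and 20575418 in the control and to 21961117 and 22322079 in the overexpressing libraries, over 15216 listed genes. At these similar totals, 95 and 69 of the listed genes had no count in the controls and 1900 and 2051 in the overexpressing libraries. Levels below are library-scaled counts (CPM) after TMM scaling, first library 1 and then library 2 of a group. Differences are log2 fold changes of overexpressing over control cells from edgeR's quasi-likelihood test, with Benjamini-Hochberg adjusted p. Of 9669 genes whose FPKM averaged at least 1 over the 4 libraries, 4720 were called at an adjusted p of 0.05, which is 48.8% of those tested. Of these, 2459 were higher (25.4%) and 2261 lower (23.4%) in overexpressing cells. At 2-fold or more, 1570 were higher (16.2%) and 759 lower (7.85%), and the median log2 fold change of all tested genes was 0.00. The 2 libraries of a group did not overlap those of the other group for 75.7% of the genes tested, and for all genes named below with their values except Mki67 and Ifng, so a clear separation of the groups was the usual case in this experiment.

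The groups also differed along transcript length and base composition. Genes whose main transcript was shorter than 600 bases had a median log2 fold change of 3.46, those of 600 to 800 bases 2.60 and those of 800 to 1000 bases 1.63, whereas the medians lay between -0.20 and 0.01 from 1500 bases upward. The median rose from -0.69 in transcripts with less than 40% GC to 1.06 in those with 60% or more. Cytosolic ribosomal protein genes, which are short, summed to 10295 and 8459 CPM in the controls and to 57474 and 49376 CPM in the overexpressing libraries. Gene lists are therefore counted in 3 fits: the unadjusted fit, a trend-removed fit from which each library's smooth trend with gene length and GC content was subtracted, and a main-transcript fit that did the same with the length of the main annotated transcript. Removing the trends left a median of 1.35 in transcripts shorter than 600 bases, so part of the length trend remained in the trend-removed fit. Over 9553 genes with a known length and GC content, the trend-removed fit called 46.6% (24.5% higher, 22.1% lower) and the main-transcript fit 43.3% (23% higher, 20.3% lower). Of these genes, 1364 (14.3%) were called higher and 1175 (12.3%) lower in all 3 fits. Every list count below is to be read beside these shares, and unadjusted counts beside 25.4% higher and 23.4% lower. A list near them did not differ from genes in general.

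**Figure D1:**
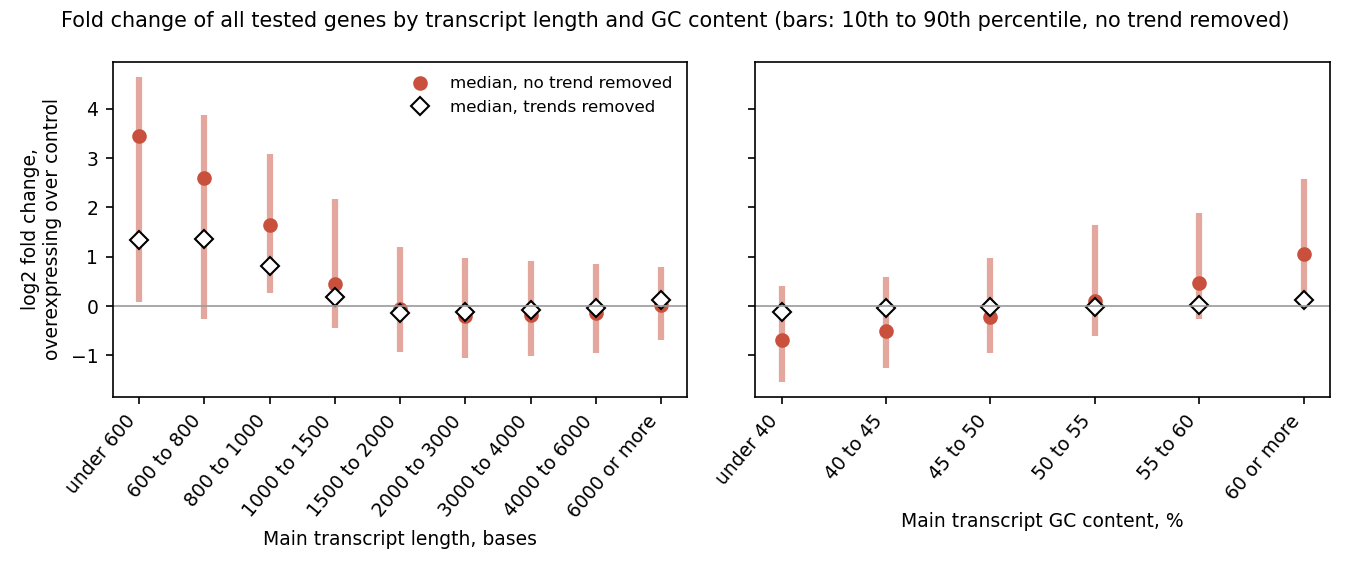
Median log2 fold change of overexpressing over control cells (y axis) for all genes with a main transcript, in classes of main transcript length in bases (left) and of GC content in percent (right). Filled circles with bars are medians and the 10th to 90th percentile with no trend removed, and open diamonds are medians after removal of the length and GC trends; the shortest transcripts have a median of 3.46 before and 1.35 after, and transcripts of 1500 bases or more lie near 0 in both.

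Markers of the sorted cell type were present in all 4 libraries. Cd8a was at 709 and 647 CPM in the controls and 636 and 629.8 CPM in the overexpressing libraries, and Cd3e, a subunit of the T cell receptor complex, at 373 and 392 against 587 and 622 CPM. The 7 CD8 T cell genes summed to 3498 and 2766 CPM in the controls and 5670 and 5177 CPM in the overexpressing libraries. Of these, 4 were called higher, namely Thy1, Cd3d, Cd3g and Cd3e, and 0 lower. Markers of other cells also moved with the groups. The sum of 9 listed neutrophil genes was 6.99 and 3.98 CPM in the controls and 110.1 and 95.1 CPM in the overexpressing libraries, and that of 5 listed erythroid genes 0.991 and 1.18 against 21.04 and 15.7 CPM; 4 of those 5 had no count in either control. S100a8, a neutrophil gene, had 0 counts in the controls and 630 in the overexpressing libraries, at least 201-fold higher against a floor of 3 counts over the control group. Hba-a1, a hemoglobin gene, had 0 and 373 counts, at least 119-fold higher; its reads can be shared with Hba-a2. The 13 macrophage and monocyte genes summed to 1047 and 885 CPM in the controls and 1139 and 1019 CPM in the overexpressing libraries. Of the 10 tested, 9 were higher while Spp1, which encodes osteopontin, was lower (876 and 715 against 257 and 270.3 CPM). Among the higher were Apoe (18.7 and 17.9 against 229 and 184 CPM) and C1qa (0.793 and 0.995 against 18.3 and 19 CPM). The 11 dendritic cell genes summed to 546 and 476 against 1253 and 1046 CPM. Of the 6 tested, 4 were higher, namely Cd74, H2-Aa, H2-Ab1 and H2-Eb1, and 1 was lower. The 7 natural killer cell genes summed to 97.4 and 97.3 against 183 and 188 CPM, but their members differed in direction. Of the 4 tested, Tyrobp and Fcer1g were higher and Klrb1c lower, at 21.1 and 19.1 against 3.74 and 7.18 CPM. Ncr1, which was not tested, had 34 and 42 counts in the controls and 6 and 0 in the overexpressing libraries.

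Signals higher in the controls were of other kinds. The 11 gene models that lie in satellite repeats, such as Gm10800 (1586 and 1425 against 8.28 and 6.64 CPM), summed to 2474 and 2519 CPM in the controls and 12.4 and 9.23 CPM in the overexpressing libraries. Bone and cartilage matrix genes, a list made after their values were seen, summed to 73.9 and 88.2 against 2.70 and 5.73 CPM, and Sparc had 524 counts in the controls and none in the overexpressing libraries, at least 183-fold lower. The 7 lymphoma and thymocyte genes summed to 399 and 385 CPM in the controls and 145 and 206 CPM in the overexpressing libraries. Themis made up most of this sum in every library, at 336 and 328 against 117 and 176 CPM, so the sum mainly follows that gene. Of the 3 tested, Themis and Cd1d1 were lower, and Cd24a was higher with a log2 fold change of 1.11. The 7 CD4 and regulatory T cell genes summed to 1165 and 1159 against 793 and 857 CPM. Most of this sum was Ctla4 (837 and 834 against 590.1 and 629 CPM) and Il2ra (261 and 251 against 138 and 163 CPM). Both are also on the receptor lists below, and Ctla4 was not called with the trends removed. Of the 5 tested, 3 were lower, and Ikzf4 was higher. The 11 stromal and endothelial genes summed to 128 and 139 against 68.7 and 70.4 CPM. The B cell genes summed to no more than 12.4 CPM in any library. These differences, the length and GC trends and the labelled genotype all separate the same libraries, and their parts in the results below cannot be told apart. In bulk libraries, moreover, fewer cells of a type and less RNA per cell give the same reading.

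**Figure D2:**
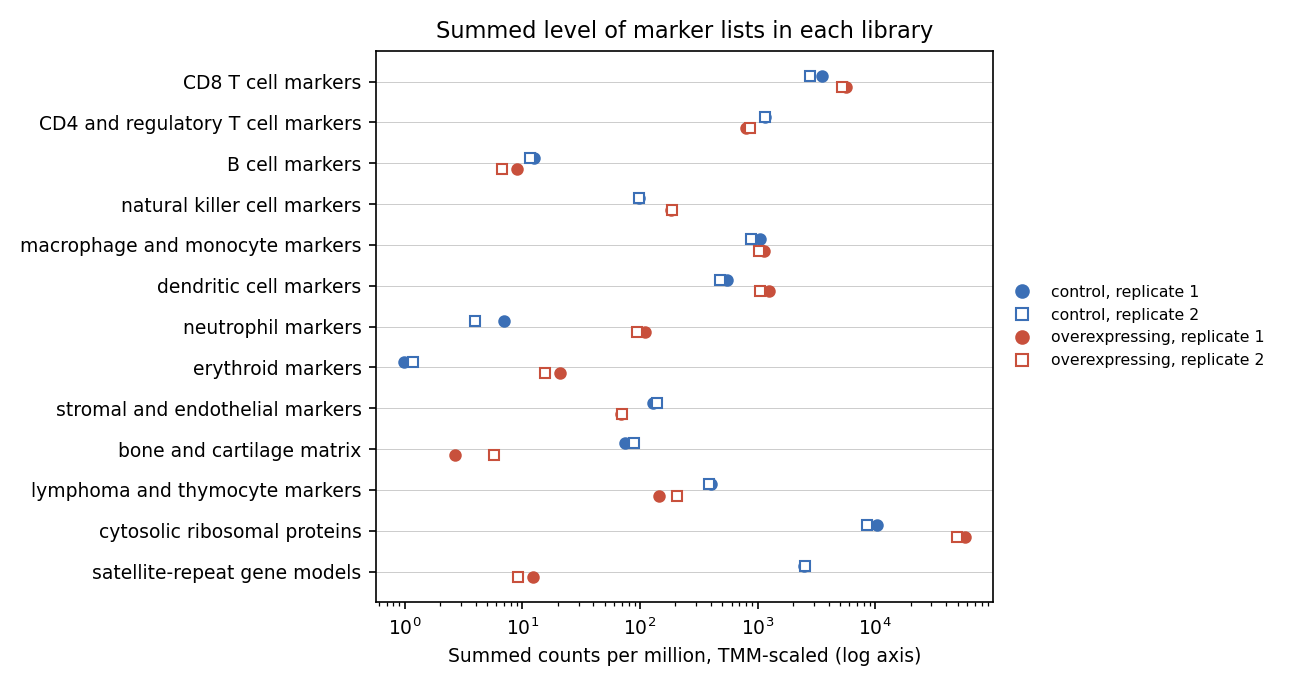
Summed level of each marker list (y axis) in CPM on a log axis (x axis) in the 4 libraries; filled circles are replicate 1 and open squares replicate 2, blue for control and red for overexpressing cells. Neutrophil and erythroid genes lie higher in both overexpressing libraries, whereas satellite-repeat gene models fall from 2474 and 2519 in the controls to 12.4 and 9.23.

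The overexpressed gene itself, Bcl6, was at 4.11 and 3.84 CPM in the control libraries and at 94.2 and 67.6 CPM in the overexpressing libraries. Both overexpressing libraries lay far above both controls, with a log2 fold change of 4.34 (SE 0.26, adjusted p 2.0e-11); it was 4.35 and 4.49 in the trend-removed and main-transcript fits. Reads of an introduced Bcl6 sequence and of the endogenous gene were counted together. Prdm1, which encodes the Bcl6 antagonist Blimp-1, was at 99.977 and 91.00 CPM in the controls and 32.8 and 41.6 CPM in the overexpressing libraries. It fell by 1.36 on the log2 scale (SE 0.20, adjusted p 1.1e-05), and the other 2 fits gave -1.03 and -1.04.

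Tcf7 was at 76.3 and 77.8 CPM in the controls and 269 and 272 CPM in the overexpressing cells. The libraries of a group were nearly equal, and the log2 fold change was 1.81 (SE 0.17, adjusted p 2.4e-08). Havcr2 stood at 914 and 899.8 CPM in the controls and 226 and 277 CPM in the overexpressing libraries, a log2 fold change of -1.85 (SE 0.18, adjusted p 2.5e-08). For both genes the direction and the call were kept in the other fits, which gave 1.84 and 1.97 for Tcf7 and -1.44 and -1.29 for Havcr2. Xcl1 rose from 31.3 and 25.8 CPM to 723 and 756 CPM, a log2 fold change of 4.69 (SE 0.20, adjusted p 3.0e-13). Its main transcript has 523 bases, a length class in which most genes were higher, and its log2 fold change was 2.18 and 2.04 once the trends were removed.

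**Figure D3:**
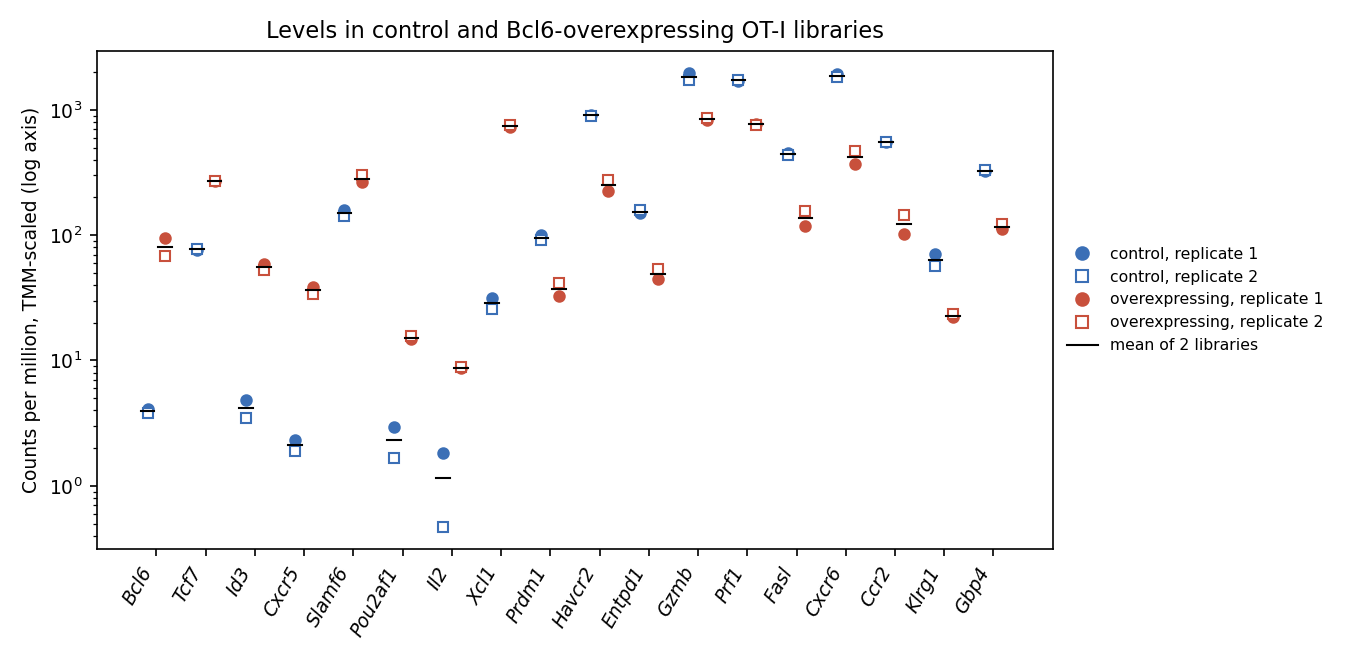
Level of 18 genes (x axis) in CPM on a log axis (y axis); blue points are the 2 control and red points the 2 overexpressing libraries, circles for replicate 1 and squares for replicate 2, and black lines mark group means. Bcl6, Tcf7, Id3, Cxcr5, Slamf6, Pou2af1, Il2 and Xcl1 are higher in both overexpressing libraries, and Prdm1 through Gbp4 are lower.

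Since Bcl6 acts at DNA, promoter windows of the genes were searched for TTCNNNGAA on both strands, the core shared by Bcl6 and STAT binding motifs, so a match cannot separate the 2 families of factors. The windows come from RefSeq (GRCm38.p6) and run from 250 bases before to 50 bases after each annotated start; 7855 of the 9669 tested genes have a window. The letters occur in 8.30% of 32851 windows. They occur in 6.85% of the windows of genes called higher, 7.73% of those of genes called lower and 6.38% of those of genes not called, all below the share of all windows. The longer match TTCCTAGAA, searched the same way, is in 0.411% of all windows, and in 0.282%, 0.695% and 0.290% of the windows of genes called higher, called lower and not called, which is 7, 16 and 15 windows. A match is a description of the letters and not a bound site. The 6 windows below belong to T cell genes described in the text, 4 that fell and 2 that rose, and were picked because they hold the letters; Tnfrsf9 and Ccr6 each have a second window with no match, not shown. Capitals mark each TTCNNNGAA match.
Fgl2 (chr5:21372423-21372722, strand +): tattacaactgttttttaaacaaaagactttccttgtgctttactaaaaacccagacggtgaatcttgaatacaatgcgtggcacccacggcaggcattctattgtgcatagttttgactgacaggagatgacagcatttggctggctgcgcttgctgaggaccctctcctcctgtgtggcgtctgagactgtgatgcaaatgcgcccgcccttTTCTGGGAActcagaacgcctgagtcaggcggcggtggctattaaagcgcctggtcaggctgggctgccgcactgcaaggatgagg
Gbp7 (chr3:142530086-142530385, strand +): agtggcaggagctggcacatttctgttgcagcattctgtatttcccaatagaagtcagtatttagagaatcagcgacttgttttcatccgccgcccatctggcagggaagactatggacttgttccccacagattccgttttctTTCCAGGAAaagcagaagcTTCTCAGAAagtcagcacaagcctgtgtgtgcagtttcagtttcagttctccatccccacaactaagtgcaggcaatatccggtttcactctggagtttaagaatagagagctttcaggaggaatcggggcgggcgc
Il12rb2 (chr6:67376139-67376438, strand -): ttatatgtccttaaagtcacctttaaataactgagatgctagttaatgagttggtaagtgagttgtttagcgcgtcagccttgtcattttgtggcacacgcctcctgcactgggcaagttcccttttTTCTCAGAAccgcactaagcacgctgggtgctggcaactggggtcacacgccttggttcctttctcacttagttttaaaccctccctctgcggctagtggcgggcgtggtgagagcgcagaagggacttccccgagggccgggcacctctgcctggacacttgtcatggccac
Tnfrsf9 (chr4:150927749-150928048, strand +): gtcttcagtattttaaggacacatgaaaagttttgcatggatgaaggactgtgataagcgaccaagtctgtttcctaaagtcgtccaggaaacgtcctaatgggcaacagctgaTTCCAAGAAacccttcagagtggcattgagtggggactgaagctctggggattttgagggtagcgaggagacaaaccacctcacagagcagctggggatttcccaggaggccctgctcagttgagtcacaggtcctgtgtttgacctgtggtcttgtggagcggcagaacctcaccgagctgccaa
Ccr6 (chr17:8235793-8236092, strand +): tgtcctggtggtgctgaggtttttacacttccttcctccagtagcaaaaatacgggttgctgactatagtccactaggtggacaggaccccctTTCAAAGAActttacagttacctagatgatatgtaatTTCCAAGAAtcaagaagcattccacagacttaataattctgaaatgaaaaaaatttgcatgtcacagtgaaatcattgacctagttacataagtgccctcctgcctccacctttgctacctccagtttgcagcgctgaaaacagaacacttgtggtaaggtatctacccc
Cd3d (chr9:44981536-44981835, strand +): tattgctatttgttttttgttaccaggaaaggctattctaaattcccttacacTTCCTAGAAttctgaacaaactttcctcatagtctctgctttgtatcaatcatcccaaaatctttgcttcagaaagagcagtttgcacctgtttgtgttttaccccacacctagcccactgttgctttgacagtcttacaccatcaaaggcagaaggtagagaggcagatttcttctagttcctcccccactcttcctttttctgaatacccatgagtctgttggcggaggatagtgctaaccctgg

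Among these genes, Fgl2, which encodes a secreted immunosuppressive fibrinogen-like protein, was at 355 and 365 CPM in the controls and 62.3 and 89.2 CPM in the overexpressing libraries, a log2 fold change of -2.25 (SE 0.19, adjusted p 4.6e-09). Il12rb2, the signaling chain of the IL-12 receptor, was at 134 and 149 against 39.1 and 48.6 CPM, a log2 fold change of -1.69 (SE 0.19, adjusted p 3.6e-07). Tnfrsf9 encodes the costimulatory receptor 4-1BB and was at 1953 and 1884 against 1055 and 927 CPM. All 3 were lower in both overexpressing libraries in the 3 fits, as was Gbp7, a guanylate-binding protein gene, at 398 and 417 against 151 and 163 CPM. Ccr6, a chemokine receptor, went the other way, from 2.28 and 1.09 CPM to 19.2 and 12.4 CPM, a log2 fold change of 3.23 (SE 0.42, adjusted p 2.4e-06). Cd3d, another subunit of the T cell receptor complex and the single window of the 6 with TTCCTAGAA, rose from 271 and 221 CPM to 1270.5 and 1004 CPM, a log2 fold change of 2.21 (SE 0.19, adjusted p 4.0e-09). No TTCNNNGAA lies in the windows of Prdm1, Havcr2, Tcf7, Id3, Xcl1 or Cxcr6.

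Genes of stem-like CD8+ T cells were higher in overexpressing cells for most listed members. Of 16 tested, 9 were higher and 1 lower, with a median log2 fold change of 0.58 against 0.00 over all genes; 9 were higher in all 3 fits and 0 lower, where 14.3% and 12.3% of all genes were. Cxcr5, the receptor that guides cells to B cell follicles, was at 2.33 and 1.89 CPM in the controls and 38.5 and 34.2 CPM in the overexpressing libraries, a log2 fold change of 4.10 (SE 0.30, adjusted p 5.6e-10). Id3, an inhibitor of E proteins, was at 4.86 and 3.46 against 58.8 and 52.6 CPM, a log2 fold change of 3.74 (SE 0.27, adjusted p 3.1e-10). Both were low in the 2 controls and far higher in both overexpressing libraries, and both kept a log2 fold change above 3 in the other fits. Slamf6, a surface receptor used to sort such cells, changed less, from 158 and 142 CPM to 265 and 299.7 CPM, with 0.91 (SE 0.17, adjusted p 1.7e-04). Rgs10, a regulator of G protein signaling, rose from 3.62 and 1.14 CPM to 12.96 and 13.9 CPM and Ltb, which encodes lymphotoxin beta, from 303 and 232 CPM to 1014 and 738 CPM. The log2 fold change of Ltb went from 1.71 to 0.35 and 0.32 when the trends were removed, whereas that of Rgs10 went from 2.50 to 2.26 and 1.08. The single lower member, Cd28, at -0.58, was not called in either trend-removed fit (0.03 and 0.11) or without control replicate 1 (-0.54, adjusted p 0.12) or control replicate 2 (-0.62, adjusted p 0.060).

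Naive and central memory genes were split. Of 15 tested, 6 were higher and 2 lower (median 0.34), and 6 were higher and 1 lower in all 3 fits. Actn1 (5.998 and 6.77 against 45.2 and 38.2 CPM), Nsg2 (2.23 and 1.75 against 10.2 and 13.5 CPM) and Dapl1 (1.19 and 0.663 against 37.3 and 34.5 CPM), genes known from naive and memory T cells, were all higher, by 2.70, 2.57 and 5.27 on the log2 scale. Klf2, a transcription factor of quiescent T cells, rose from 13.7 and 11.1 CPM to 57.2 and 59.2 CPM, while S1pr1, the egress receptor whose gene Klf2 is known to switch on, fell from 124 and 128 CPM to 71.1 and 66.04 CPM. Their log2 fold changes were 2.23 and -0.88, and 1.15 and -0.71 with the trends removed. Il7r, the IL-7 receptor chain of memory cells, was at 119 and 106 against 71.3 and 86.9 CPM and was called lower at -0.51; it was 0.19 and 0.31 and not called in the other fits, nor without control replicate 1 (-0.42), control replicate 2 (-0.59) or overexpressing replicate 1 (-0.38).

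Of 10 tested genes known from follicular helper T cells, the cells in which Bcl6 is the defining factor, 3 were called higher and 2 called lower, and these 3 and 2 held in all 3 fits. Beside Cxcr5, the higher members included Pou2af1, a transcriptional coactivator, at 2.97 and 1.66 against 14.8 and 15.6 CPM (log2 fold change 2.72, SE 0.38, adjusted p 7.0e-06). The third was Sh2d1a, which encodes the SLAM adaptor SAP, at 58.5 and 45.2 against 120.4 and 158 CPM (log2 fold change 1.42, SE 0.20, adjusted p 7.0e-06). Cd40lg, the helper ligand, went down, from 49.02 and 44.4 CPM in the controls to 20.8 and 23.2 CPM, a log2 fold change of -1.09 (SE 0.22, adjusted p 4.0e-04). Pdcd1, which encodes PD-1, was the other lower member and is given with the inhibitory receptors.

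Effector transcription factors changed in both directions. Of 16 tested, 5 were higher and 6 lower, and 3 and 3 in all 3 fits; without control replicate 1, 3 were lower. Beside Prdm1, Bhlhe40, a repressor induced by receptor signaling, was lower at 1817 and 1897 against 1173 and 1117 CPM (log2 fold change -0.70, SE 0.17, adjusted p 0.0018). Gata3, a factor of type 2 helper cells also used by CD8+ T cells, was lower at 323 and 359 against 223 and 190.3 CPM (log2 fold change -0.72, SE 0.17, adjusted p 0.0015). Zfp683, which encodes Hobit, a homolog of Blimp-1, was the opposite of Prdm1. It rose from 0.694 and 1.80 CPM to 8.18 and 6.05 CPM, a log2 fold change of 2.50 (SE 0.49, adjusted p 2.6e-04), and 1.35 and 2.01 with the trends removed. Runx2 rose from 145 and 138 CPM to 266 and 247 CPM (log2 fold change 0.86, SE 0.17, adjusted p 2.7e-04). Batf, an AP-1 partner, was at 47.6 and 39.9 against 152 and 120.3 CPM; its log2 fold change of 1.64 became 0.53 and 0.12 with the trends removed and was not called in the main-transcript fit.

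Factors tied to exhaustion were higher in 6 of 11 and lower in none in the unadjusted fit, and 4 were higher in all 3 fits; 3 were higher without control replicate 1. Nr4a3, an orphan nuclear receptor induced by receptor signaling, was at 74.8 and 81.8 CPM in the controls and 255 and 232 CPM in the overexpressing libraries (log2 fold change 1.64, SE 0.17, adjusted p 1.4e-07). Ikzf2, which encodes Helios, was at 42.4 and 39.2 against 82.8 and 129 CPM (log2 fold change 1.38, SE 0.21, adjusted p 2.3e-05). Tox, the factor that sets up the exhausted state, differed less, at 124 and 131 against 184 and 173 CPM, a log2 fold change of 0.49 (SE 0.17, adjusted p 0.022); without control replicate 1 it was 0.45 and without control replicate 2 0.52, with adjusted p of 0.22 and 0.14. Both overexpressing libraries were above both controls for these 3 genes.

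A list of 22 genes known as Bcl6-repressed in B cells, helper T cells or other cells did not move together. In overexpressing cells 9 were lower and 7 higher (median -0.15), and 6 and 6 in all 3 fits; without control replicate 1, 5 were lower. Prdm1, Gata3 and S1pr1 were among the lower, with Cd69, an early activation marker that retains cells in tissue, at 1063 and 1003 against 384 and 533 CPM (log2 fold change -1.17, SE 0.18, adjusted p 2.5e-05). Ccr6, Klf2 and Runx2 were among the higher, with Cdkn1a, which encodes the cell cycle inhibitor p21, at 133 and 131 against 343 and 281 CPM (log2 fold change 1.24, SE 0.17, adjusted p 6.3e-06). Of the 14 corepressor genes tested, 5 were higher in the unadjusted fit but 1 in all 3: Hdac7, a class II histone deacetylase, at 85.9 and 98.1 against 281 and 235 CPM.

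Inhibitory receptor genes were mostly lower. Of 17 tested, 10 were lower and 1 higher (median -0.57), and 7 were lower and 1 higher in all 3 fits. Entpd1, which encodes the ectonucleotidase CD39 of terminally exhausted cells, was at 149 and 158 CPM in the controls and 44.6 and 53.9 CPM in the overexpressing libraries, a log2 fold change of -1.64 (SE 0.19, adjusted p 3.9e-07). Cd244a, which encodes the SLAM family receptor 2B4, was at 108 and 99.996 against 29.1 and 38.9 CPM (log2 fold change -1.62, SE 0.20, adjusted p 1.5e-06). Lilrb4a, an ITIM-bearing receptor, was at 128 and 116 against 32.9 and 47.9 CPM (log2 fold change -1.60, SE 0.21, adjusted p 2.2e-06). With Havcr2, these had the largest decreases of the list in the unadjusted fit. In the trend-removed fit the largest was that of Tigit, at -2.49 (adjusted p 4.6e-11), against -0.53 without adjustment. Pdcd1 differed less, at 2027 and 2057 against 1482 and 1278 CPM, a log2 fold change of -0.57 (SE 0.17, adjusted p 0.0095); it was -0.58 without control replicate 1 (adjusted p 0.095) and -0.56 without control replicate 2 (adjusted p 0.11). Cd160, a receptor for the TNF receptor family member HVEM, was the higher member, at 209 and 157 against 407 and 349.9 CPM (log2 fold change 1.05, SE 0.18, adjusted p 7.3e-05). Ctla4 was at 837 and 834 against 590.1 and 629 CPM and was called lower at -0.45, but was 0.09 and 0.25 and not called with the trends removed, nor without control replicate 1 (-0.45) or control replicate 2 (-0.46).

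Cytotoxic genes depended on the fit. Without adjustment 7 of 21 were lower and 5 higher; in the trend-removed fit 13 were lower and 2 higher, in the main-transcript fit 13 and 1, and 5 were lower in all 3. Without control replicate 2, 3 were higher in the unadjusted fit. The median moved from 0.14 to -0.74 and -0.50. Prf1, which encodes the pore-forming perforin, was at 1704 and 1722 CPM in the controls and 775 and 759 CPM in the overexpressing libraries (log2 fold change -1.16, SE 0.17, adjusted p 1.0e-05). Gzmb, which encodes the protease granzyme B, was at 1951 and 1727 against 825 and 861 CPM (log2 fold change -1.13, SE 0.17, adjusted p 1.8e-05). Fasl, a death receptor ligand, was at 455 and 435 against 118 and 155 CPM (log2 fold change -1.70, SE 0.18, adjusted p 1.3e-07). Serpinb9, an inhibitor that protects the killer cell from granzyme B, was at 1697 and 1683 against 396 and 489 CPM (log2 fold change -1.93, SE 0.18, adjusted p 1.7e-08). All 4 were lower in both overexpressing libraries in every fit. Lamp1, a lysosomal membrane protein shown on the surface after degranulation, was higher in all 3 fits, at 42.98 and 51.1 against 87.7 and 102 CPM. Nkg7, a granule membrane gene, was at 1782 and 1136 against 3815 and 3182 CPM and changed direction with the fit: its log2 fold change was 1.26 without adjustment (adjusted p 3.6e-05) and -0.74 and -0.36 with the trends removed (adjusted p 3.5e-05 and 0.0067).

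Killer-cell receptor genes were lower in 5 and higher in 2 of 15 tested. In all 3 fits 3 (20%) were lower and 2 (13.3%) higher, where 12.3% and 14.3% of all genes were. Klrg1, a marker of terminal effector cells, was at 70.8 and 56.3 CPM in the controls and 22.3 and 23.3 CPM in the overexpressing libraries (log2 fold change -1.48, SE 0.22, adjusted p 1.1e-05). Klrc1, which encodes the inhibitory receptor NKG2A, was at 974 and 847 against 184 and 273 CPM (log2 fold change -1.996, SE 0.20, adjusted p 4.1e-08). Klrb1c, which encodes NK1.1, was at 21.1 and 19.1 against 3.74 and 7.18 CPM (log2 fold change -1.88, SE 0.34, adjusted p 1.2e-04). The 2 higher members were the signaling adaptors Tyrobp (1.49 and 1.75 against 42.8 and 25.6 CPM) and Fcer1g (5.25 and 5.40 against 59.7 and 42.9 CPM), which myeloid cells also express; the part of the macrophage and neutrophil signal in them was not tested. Their log2 fold changes went from 4.39 and 3.27 to 1.21 and 1.20 with the trends removed. Reads of close paralogs within the Klr family can be shared.

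Chemokine genes were higher in 9 of 11 without adjustment, in 8 in the trend-removed fit and in 4 in the main-transcript fit, and 3 in all 3. Beside Xcl1, these were Ccl6 (5.25 and 2.94 against 24.1 and 32.8 CPM), a chemokine of myeloid cells, and Cxcl16 (4.06 and 7.53 against 11.9 and 12.4 CPM), the ligand of Cxcr6; the call of Cxcl16 was lost without control replicate 1 (0.69, adjusted p 0.26). The macrophage and neutrophil genes above moved in the same direction as Ccl6, and their part in it was not tested. Ccl5, a chemokine of effector and memory CD8+ T cells, was at 195 and 187 against 2494 and 1628 CPM; its log2 fold change of 3.43 became 1.55 and -0.04. Ccl3 was at 221 and 146 against 425 and 369 CPM, called higher at 1.11 (adjusted p 7.7e-05) without adjustment and lower at -0.66 and -0.41 with the trends removed (adjusted p 3.6e-04 and 0.010). Ccl4, at 458 and 337 against 2283 and 1819 CPM, was called higher at 2.37 and was -0.21 and -0.01 and not called in the other fits.

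Of 13 cytokine genes tested, 7 were higher and 1 lower without adjustment, and 3 and 1 in all 3 fits; 4 were higher without control replicate 1. Il2, the T cell growth factor, was at 1.83 and 0.474 CPM in the controls and 8.70 and 8.82 CPM in the overexpressing libraries (log2 fold change 2.93, SE 0.51, adjusted p 8.1e-05). Tnfsf11, which encodes RANKL, was at 7.88 and 5.21 against 19.1 and 17.00 CPM (log2 fold change 1.46, SE 0.32, adjusted p 7.6e-04). Csf1, the macrophage growth factor, was the lower member, at 111 and 116 against 69.7 and 69.4 CPM (log2 fold change -0.71, SE 0.18, adjusted p 0.0028). Ifng, which encodes interferon gamma, was at 755 and 587 against 650.4 and 549.9 CPM and was not called without adjustment (-0.16, adjusted p 0.47); the trend-removed value was -0.41 (adjusted p 0.023).

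Of 17 chemokine and egress receptors tested, 5 were lower and 3 higher, and 4 and 3 in all 3 fits. The unadjusted shares, 29.4% lower and 17.6% higher, stand beside 23.4% and 25.4% of all genes, so the list as a whole was near the background and its members are given singly. Cxcr6, which holds effector cells near Cxcl16-expressing cells, was at 1928 and 1816 CPM in the controls and 370.00 and 465 CPM in the overexpressing libraries (log2 fold change -2.17, SE 0.18, adjusted p 3.6e-09). The inflammatory chemokine receptor gene Ccr2 was lower too, at 550.5 and 555 against 101 and 144 CPM (log2 fold change -2.17, SE 0.19, adjusted p 6.1e-09). Cxcr4, the receptor for Cxcl12, was higher, at 19.4 and 19.2 against 41.3 and 45.9 CPM (log2 fold change 1.18, SE 0.22, adjusted p 2.1e-04), with Cxcr5 and Ccr6. So Cxcr6, Ccr2 and S1pr1 were lower and Cxcr5, Ccr6 and Cxcr4 higher in all 3 fits.

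Integrins and other adhesion molecules were higher in 2 and lower in 7 of 17 in the unadjusted fit. They were higher and lower in 4 and 6 in the trend-removed fit, 3 and 7 in the main-transcript fit, and 2 and 4 in all 3. In the unadjusted fit 3 were lower without control replicate 1 and 3 without control replicate 2. Itga1, the CD49a chain of a collagen-binding integrin of resident T cells, was lower in all 3 fits, at 35.99 and 41.2 against 12.1 and 21.5 CPM (log2 fold change -1.20, SE 0.26, adjusted p 8.8e-04). Itgb2, the common beta chain of leukocyte integrins, was lower at 1874 and 1874 against 1213 and 1070.1 CPM (log2 fold change -0.71, SE 0.17, adjusted p 0.0016). Cd226, an activating receptor that competes with TIGIT, fell from 199.8 and 178 CPM to 54.1 and 89.00 CPM (log2 fold change -1.40, SE 0.21, adjusted p 1.5e-05). Of 8 residency genes tested, 4 were lower and 2 higher: Cxcr6, Itga1 and Cd69 were lower and Zfp683 and Itgae higher in all 3 fits. Itgae, which encodes CD103, was at 6.39 and 5.59 against 10.2 and 14.4 CPM (log2 fold change 1.04, SE 0.34, adjusted p 0.016); its call was lost without control replicate 1 (1.14, adjusted p 0.056), control replicate 2 (0.94, adjusted p 0.11) or overexpressing replicate 2 (0.75, adjusted p 0.11).

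Cytokine receptor genes were lower in 10 and higher in 3 of 22 tested (median -0.38), and lower in 7 in all 3 fits; without control replicate 1, 6 were lower and 1 higher. Beside Il12rb2, the IL-18 receptor chain gene Il18rap was lower at 741 and 772 against 293 and 324 CPM (log2 fold change -1.29, SE 0.17, adjusted p 2.4e-06). Its partner Il18r1 was lower at 124 and 111 against 53.8 and 70.9 CPM (log2 fold change -0.91, SE 0.19, adjusted p 5.8e-04). Ifngr1, the ligand-binding chain of the interferon gamma receptor, was at 1463 and 1486 against 601 and 621 CPM (log2 fold change -1.27, SE 0.17, adjusted p 3.1e-06). The shared gamma chain gene Il2rg (1526 and 1433 against 873 and 782 CPM) and the high-affinity IL-2 receptor chain gene Il2ra (261 and 251 against 138 and 163 CPM) were lower, with log2 fold changes of -0.84 and -0.77. Il1r2, a decoy receptor for IL-1, was higher, at 64.8 and 66.9 against 163 and 157 CPM (log2 fold change 1.28, SE 0.18, adjusted p 5.7e-06).

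Genes that respond to IL-2 and STAT5 changed both ways, 6 higher and 5 lower of 17 in the unadjusted fit, 7 and 8 in the trend-removed fit, 6 and 8 in the main-transcript fit, and 4 and 5 in all 3. The feedback inhibitors diverged: Socs1 rose from 37.03 and 28.8 CPM to 116 and 97.5 CPM (log2 fold change 1.70, SE 0.20, adjusted p 7.7e-07) and Socs2 fell from 27.5 and 24.96 CPM to 11.7 and 12.6 CPM (log2 fold change -1.11, SE 0.26, adjusted p 0.0014), in all 3 fits. Of 12 genes of the TGF-beta response, 4 were higher and 1 lower in the unadjusted fit, 5 and 2 in the trend-removed fit, 3 and 4 in the main-transcript fit, and 3 and 1 in all 3. In the unadjusted fit 2 were higher without control replicate 1 and 2 without control replicate 2, and with a filter of 5 FPKM 0 were. Among 17 TNF receptors and ligands, 7 were higher and 2 lower without adjustment, and 3 and 2 in all 3 fits. Tnfrsf25, which encodes the death receptor DR3, rose from 0.793 and 2.56 CPM to 7.42 and 9.05 CPM (log2 fold change 2.29, SE 0.48, adjusted p 5.7e-04).

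Guanylate-binding proteins and the related immunity GTPases, which interferon gamma induces and which defend cells against pathogens, were lower in all 13 members tested. Their median log2 fold change was -1.14, and -0.72 with the trends removed, where 9 of 13 were called; 9 were lower in all 3 fits. Gbp4 was at 322 and 328 CPM in the controls and 112 and 122 CPM in the overexpressing libraries (log2 fold change -1.48, SE 0.17, adjusted p 4.3e-07), Gbp10 at 34.1 and 28.00 against 7.09 and 11.5 CPM (log2 fold change -1.73, SE 0.28, adjusted p 4.2e-05), and Igtp at 366 and 302 against 158 and 163 CPM (log2 fold change -1.05, SE 0.17, adjusted p 3.9e-05). The genes are close paralogs, so reads can be shared among them and the members are not independent.

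Type I interferon genes were mixed, 12 lower and 4 higher of 24, and 6 and 4 in all 3 fits; 6 were lower without control replicate 1 and 7 without control replicate 2. Ifit2, an RNA-binding antiviral protein gene, was at 57.9 and 57.4 against 13.3 and 27.4 CPM (log2 fold change -1.50, SE 0.27, adjusted p 1.1e-04). Ifit1 was at 71.8 and 57.2 against 21.5 and 27.05 CPM (log2 fold change -1.41, SE 0.22, adjusted p 2.5e-05). Isg15, a ubiquitin-like modifier with a main transcript of 756 bases, went the other way, at 2.28 and 1.71 against 34.4 and 20.7 CPM; its log2 fold change of 3.79 became 0.98 and 1.59. Ifit1 and Ifit2 on one side and Isg15 on the other, which the same interferon induces, thus differed in direction in all 3 fits.

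**Figure D4:**
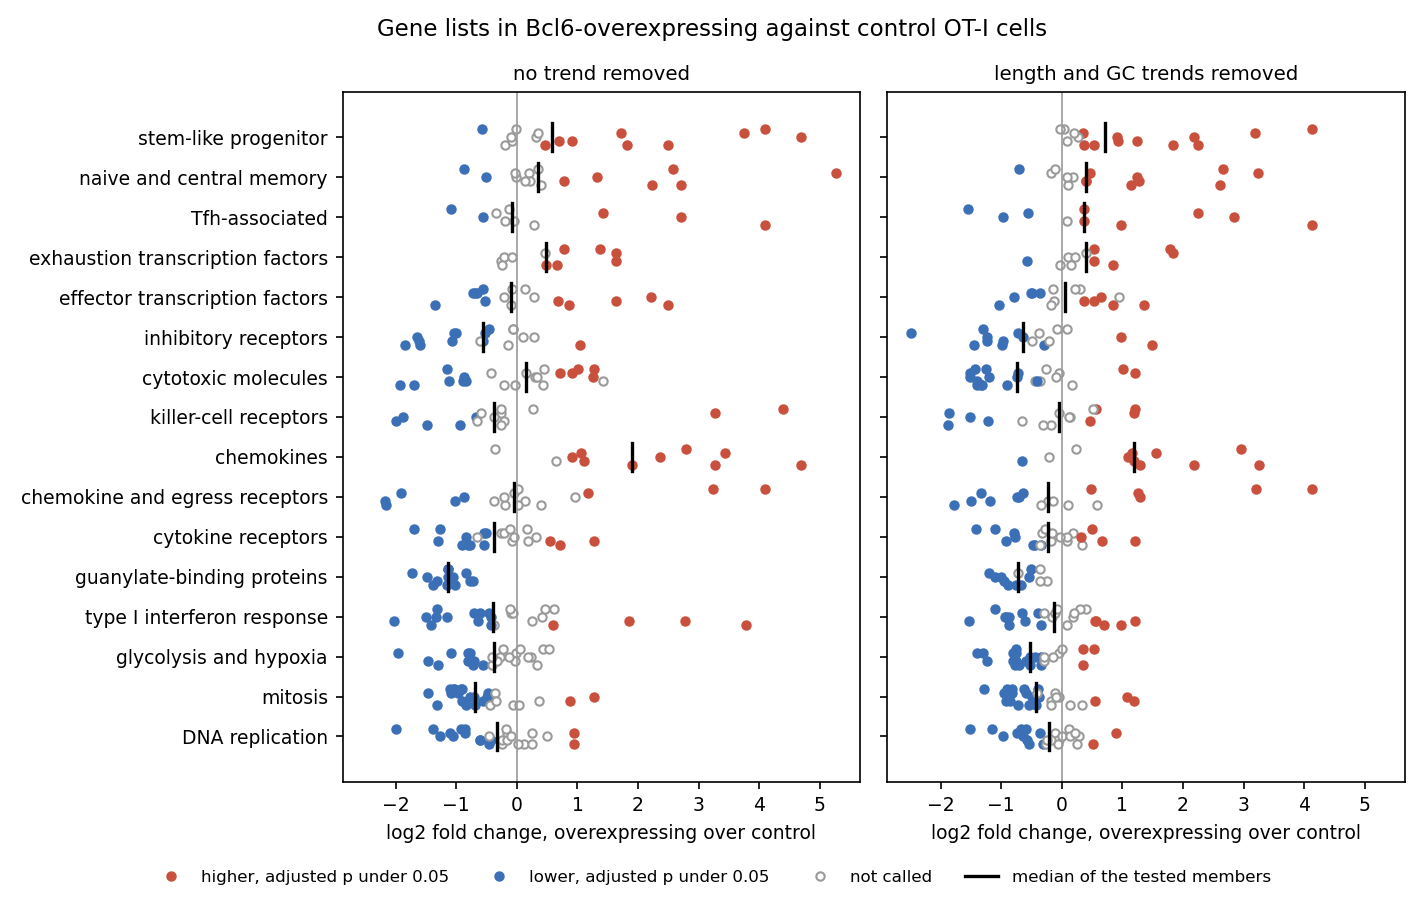
Log2 fold change of overexpressing over control cells (x axis) of each tested member of 16 gene lists (y axis), with no trend removed (left) and with the length and GC trends removed (right). Red and blue points are genes called higher and lower, open points are not called, and black bars are list medians; guanylate-binding proteins lie below 0 in both panels (median -1.14 and -0.72), and the median of the cytotoxic list moves from 0.14 to -0.74.

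Genes of mitosis were mostly lower. Of 26 tested, 18 were lower and 2 higher (median -0.70), and 12 were lower and 0 higher in all 3 fits. Kif11, the kinesin that separates spindle poles, was at 219 and 245 CPM in the controls and 84.03 and 83.5 CPM in the overexpressing libraries (log2 fold change -1.47, SE 0.17, adjusted p 6.2e-07). Nusap1, a spindle protein gene, was at 122 and 111 against 35.3 and 58.5 CPM (log2 fold change -1.31, SE 0.22, adjusted p 4.9e-05). Ccnb1, which encodes the mitotic cyclin B1, was at 169.8 and 148 against 78.1 and 72.04 CPM (log2 fold change -1.08, SE 0.18, adjusted p 4.8e-05). All 3 were lower in both overexpressing libraries in every fit, whereas Mki67, which encodes the proliferation antigen Ki-67, did not pass the test, at 264 and 281 against 214 and 306 CPM (-0.07, adjusted p 0.79); it was 0.16 without overexpressing replicate 1 and -0.36, called with an adjusted p of 0.044, without overexpressing replicate 2. Of 26 DNA replication genes, 12 were lower and 2 higher, and 10 and 2 in all 3 fits. Ccne2, which encodes cyclin E2, was at 56.01 and 51.8 against 7.66 and 19.4 CPM (log2 fold change -1.99, SE 0.30, adjusted p 2.0e-05). Rrm1, the large subunit of ribonucleotide reductase, was at 549 and 531 against 201 and 246 CPM (log2 fold change -1.27, SE 0.17, adjusted p 4.0e-06).

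Quiescence genes did not move together, 6 higher and 6 lower of 20, and 6 and 3 in all 3 fits. Among the higher, Cdkn1b, which encodes the cell cycle inhibitor p27, was at 10.5 and 12.8 against 37.4 and 47.9 CPM (log2 fold change 1.87, SE 0.25, adjusted p 3.1e-06), Klf4 at 25.5 and 22.5 against 78.8 and 77.1 CPM (log2 fold change 1.70, SE 0.20, adjusted p 8.7e-07) and Foxo1, the factor that switches on homing genes in quiescent T cells, at 36.7 and 33.1 against 74.2 and 65.4 CPM (log2 fold change 0.999, SE 0.20, adjusted p 3.6e-04). Both cyclin-dependent kinase inhibitor genes, Cdkn1a and Cdkn1b, were higher in both overexpressing libraries in all 3 fits, beside the lower mitotic genes.

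Genes of glycolysis and hypoxia were lower in 10 and higher in 0 of 24 (median -0.37), in 16 and 3 with the trends removed, and 9 were lower in all 3 fits. Slc2a3, a glucose transporter gene, was at 757 and 749 CPM in the controls and 260.2 and 285 CPM in the overexpressing libraries (log2 fold change -1.47, SE 0.17, adjusted p 4.4e-07). Bnip3, a mitophagy gene induced by low oxygen, was at 81.4 and 70.96 against 14.9 and 24.1 CPM (log2 fold change -1.96, SE 0.24, adjusted p 8.8e-07). Hif1a, the oxygen-sensing factor, was at 667 and 627 against 197 and 329 CPM (log2 fold change -1.30, SE 0.20, adjusted p 2.5e-05). Eno1, which encodes the glycolytic enzyme enolase, was at 4337 and 3978 against 2648 and 2216 CPM (log2 fold change -0.77, SE 0.18, adjusted p 0.0011).

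Nuclear genes of oxidative phosphorylation are mostly short, and 23 of 34 were higher, with a median of 2.26 that became 1.40 in the trend-removed and 0.46 in the main-transcript fit. Restricted to main transcripts of at least 1500 bases, 4 of 12 were higher and 1 lower, where 23.6% and 22.8% of all such genes were. Cox7b, a cytochrome oxidase subunit, was at 9.02 and 9.52 against 141 and 126 CPM, whereas Ndufs1, the largest subunit of complex I, was lower in all 3 fits, at 164 and 163 against 79.3 and 95.6 CPM. Of 13 mitochondrially encoded genes, 9 were higher and 0 lower, but unevenly: mt-Co2 was at 0.892 and 1.04 against 41.7 and 29.8 CPM (5.20) and mt-Nd1 at 538 and 454 against 757 and 1640.5 CPM (1.27), although both are transcribed from the same strand as parts of a shared precursor.

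Signaling genes of the T cell receptor were split, 6 higher and 7 lower of 20 in the unadjusted fit, 6 and 7 in the trend-removed fit, 7 and 11 in the main-transcript fit, and 5 and 6 in all 3. In the unadjusted fit, without control replicate 1, 3 were lower and without control replicate 2, 4. Thy1, a surface glycoprotein of T cells, was at 55.8 and 60.6 CPM in the controls and 516 and 396 CPM in the overexpressing libraries (log2 fold change 2.97, SE 0.19, adjusted p 5.0e-11), and Cd3d rose with it. Lcp2, which encodes the adaptor SLP-76, was lower at 699.99 and 729 against 333 and 356 CPM (log2 fold change -1.05, SE 0.17, adjusted p 2.8e-05), as was Ptprc, which encodes CD45, at 3364 and 3369 against 1458 and 1807 CPM (log2 fold change -1.04, SE 0.18, adjusted p 6.4e-05). Among 22 immediate early and MAP kinase feedback genes, 8 were higher and 2 lower in the unadjusted fit. The counts were 5 and 7 in the trend-removed fit, 6 and 5 in the main-transcript fit, and 4 and 2 in all 3. The list median was 0.16 without adjustment and -0.17 with the trends removed. Dusp6, a phosphatase that reports ERK activity, fell from 269 and 282 CPM to 115 and 114 CPM (log2 fold change -1.27, SE 0.17, adjusted p 3.2e-06).

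Apoptosis regulators were higher in 6 and lower in 7 of 19 in the unadjusted fit. They were higher and lower in 6 and 6 in the trend-removed fit, 4 and 5 in the main-transcript fit, and 3 and 4 in all 3. The last counts are 15.8% and 21.1% of the list, where 14.3% and 12.3% of all genes were. In the unadjusted fit 4 were lower without control replicate 1 and 3 without control replicate 2. Bak1, a pore-forming executioner, was at 0.694 and 1.56 against 14.6 and 6.18 CPM (log2 fold change 3.19, SE 0.51, adjusted p 3.1e-05). Pmaip1, which encodes the BH3-only protein Noxa, was at 386 and 397 against 106 and 127 CPM (log2 fold change -1.75, SE 0.17, adjusted p 5.0e-08). These genes, both pro-apoptotic, moved in opposite directions in all 3 fits. Of 10 other BTB zinc finger genes tested, relatives of Bcl6, 1 was higher and 2 were lower (10% and 20%). Of all tested genes, 25.4% were higher and 23.4% lower. Zbtb38 was at 301 and 292 against 83.5 and 87.7 CPM (log2 fold change -1.79, SE 0.17, adjusted p 2.7e-08). Zbtb1 was at 124 and 131 against 40.6 and 73.7 CPM (log2 fold change -1.16, SE 0.22, adjusted p 2.6e-04). Zbtb7a rose from 46.00 and 48.8 CPM to 145 and 113 CPM (log2 fold change 1.44, SE 0.19, adjusted p 3.4e-06).

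Of 18 S100, annexin and galectin genes, 9 were higher and 4 lower, and 7 and 4 in all 3 fits. Anxa1, an annexin that modulates inflammation, fell from 612 and 492 CPM to 125 and 167 CPM (log2 fold change -1.92, SE 0.19, adjusted p 4.2e-08). Genes of sterol and fatty acid synthesis were higher in 4 and lower in 9 of 24 in the unadjusted fit. They were higher and lower in 2 and 8 in the trend-removed fit, 3 and 7 in the main-transcript fit, and 2 and 6 in all 3. Without control replicate 1 the unadjusted counts of higher and lower genes were 1 and 4, and without control replicate 2 they were 2 and 5. Of 14 DNA methylation and Polycomb genes, 5 were lower and 0 higher, and 2 were lower in all 3 fits, 14.3% of the list where 12.3% of all genes were. Amino acid transporter genes were higher in 3 and lower in 0 of 8, and in 3 and 0 in the trend-removed fit, 4 and 1 in the main-transcript fit, and 3 and 0 in all 3. In the unadjusted fit they were higher in 1 without control replicate 1 and 1 without control replicate 2. Heat shock and chaperone genes were higher in 4 and lower in 5 of 16 in the unadjusted fit, and in 4 and 4 in the trend-removed fit, 6 and 4 in the main-transcript fit, and 3 and 2 in all 3. In the unadjusted fit 1 was lower without control replicate 1 and 2 without control replicate 2.

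By size alone, the largest increases were mostly in genes known from cells other than T cells. This ranking covers genes that averaged at least 5 FPKM in the higher group, predicted gene models left out. Of the 12 largest, 8 encode neutrophil, hemoglobin or platelet products: S100a8, S100a9, Camp, Elane, Hba-a1, Hba-a2, Hbb-bs and Pf4, a platelet and megakaryocyte chemokine. Elane, which encodes neutrophil elastase, was at 0 and 0.332 against 18.5 and 15.6 CPM, and S100a9 at 0.397 and 0 against 11.96 and 9.55 CPM. The remaining 4 were Tmem160 (1.19 and 1.14 against 100.35 and 47.6 CPM), Scand1 (0.149 and 0.663 against 27.8 and 23.1 CPM), Ifi27l2a (3.92 and 4.64 against 232 and 145 CPM) and Ccl8 (0.198 and 0 against 5.06 and 3.73 CPM). The ranking is that of the unadjusted fit, and these 4 genes have main transcripts of 815, 759, 463 and 511 bases. Their log2 fold changes of 5.98, 5.94, 5.46 and 5.41 became 2.80, 1.86, 1.39 and 2.63 in the trend-removed fit. Predicted gene models in satellite repeats had some of the largest decreases. The log2 fold changes were -9.58 for Gm10801, -8.50 for Gm10722, -7.68 for Gm21738, -7.66 for Gm10800 and -6.61 for Gm10717. Bone and cartilage matrix genes fell far as well, with a median log2 fold change of -7.535 over the 5 tested. The minimum of 5 FPKM left out further large decreases, such as that of Col1a1 at -4.97 (mean 3.19 FPKM in the controls). With that minimum and without predicted gene models, the 12 largest decreases held the T cell genes Cxcr6, Ccr2 and Fgl2. They also held Serpinb9b (501 and 490.3 against 117 and 111 CPM), a serpin of the same family as Serpinb9, Capza1 (783 and 782 against 107 and 198 CPM), an actin-capping subunit, and Mlkl (49.2 and 48.7 against 10.7 and 12.6 CPM), the effector of necroptosis. The others were Chit1, Yod1, Gpr34, Trappc2, Siglecf and Tmem263, with log2 fold changes of -2.46, -2.42, -2.20, -2.18, -2.07 and -2.05. Gpr34 and Siglecf are known from myeloid cells, and they were lower although most tested macrophage genes were higher. The smallest p-values among higher genes belonged to Xcl1 and to Rps23, Rplp1, Fau and Rpl32, which encode ribosomal proteins or, for Fau, a fusion of a ribosomal protein with a ubiquitin-like one. Among lower genes they belonged to the same 5 satellite-repeat models. The log2 fold changes of Rps23, Rplp1, Fau and Rpl32 were 4.90, 5.28, 4.46 and 4.64 without adjustment. In the trend-removed fit they were 4.38, 0.89, 2.03 and 2.90.

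The same genes were read in endogenous Bcl6-expressing cells, the Bcl6+ TILs, against TIM-3+ TILs. These libraries were processed apart and share no sample with the OT-I libraries, so the values are set side by side with no test between the experiments. In TILs Tcf7 was at 913 ± 64.1 CPM (mean ± SD, n = 2) in Bcl6+ and 42.7 ± 9.15 CPM in TIM-3+ cells, a log2 fold change of 4.42 against 1.81 in overexpressing OT-I cells. Havcr2 had -4.86 in TILs and -1.85 in OT-I cells, Prdm1 -3.61 and -1.36, Gzmb -5.10 and -1.13, and Prf1 -3.60 and -1.16. Cxcr5 had 7.09 and 4.10, Id3 5.997 and 3.74, Slamf6 4.25 and 0.91, and Pou2af1 3.84 and 2.72. These genes were picked from those described above with their values known. They had the same sign in both, and the TIL value was the larger in size; the sorting gates of the TILs were set on Bcl6 and TIM-3 themselves. Other genes had the opposite sign in the 2 experiments: Runx2 had -1.16 in TILs (adjusted p 6.1e-07) against 0.86, Il18rap 0.20 (adjusted p 0.011) against -1.29, Hif1a 0.51 (adjusted p 5.0e-06) against -1.30, and Nr4a3 -0.42 (adjusted p 0.0073) against 1.64. Bnip3 had 0.04 in TILs and was not called there (adjusted p 0.89).

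Over 9145 genes tested in both, 4476 were called in OT-I cells, 3423 in TILs and 1786 in both. The 1786 are 39.9% of the calls in OT-I cells and 52.2% of those in TILs. Over all genes tested in each experiment, 38.6% were called in TILs and 48.8% in OT-I cells, so the overlap was near these shares. Of the 1786 genes, 63.8% had the same sign, and 69.3% of 1420 when the main transcript had at least 1500 bases. Over all genes tested in both, called or not, 53.7% had the same sign (55.3% for the longer transcripts), and the Spearman correlation across genes, which are not independent replicates, was 0.143 (0.202). In the Prdm1 experiment, where 1.36% of genes were called, overexpression of the Bcl6 antagonist gave values of the opposite sign for several of the same genes: Tcf7 -2.39 (adjusted p 0.0059), Slamf6 -1.31 (0.022), Cxcr6 1.22 (0.022), Fgl2 1.43 (0.017), Cd244a 1.64 (0.011), Gbp4 1.15 (0.028) and Slc2a3 1.32 (0.021). Havcr2, at 0.73, was not called there (adjusted p 0.082), nor were Prf1 (0.74, 0.083) and Gzmb (0.60, 0.23). The called genes were picked from those described above. Of 19825 genes listed in the Prdm1 experiment, 1570 and 2177 had no count in the controls and 524 and 531 in the overexpressing libraries. That difference runs opposite to the one in the Bcl6 experiment, and its part in these signs was not tested.

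**Figure D5:**
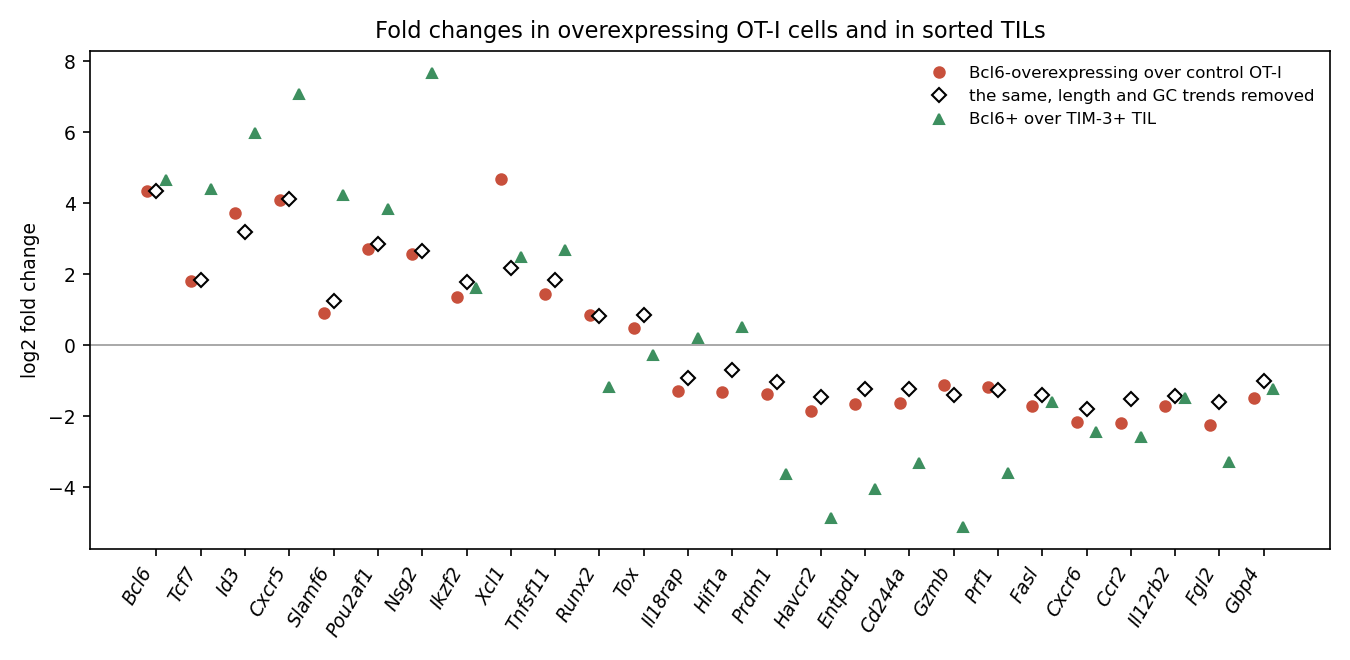
Log2 fold change (y axis) of 26 genes (x axis) in Bcl6-overexpressing over control OT-I cells, with no trend removed (red circles) and with the trends removed (open diamonds), and in Bcl6+ over TIM-3+ TILs (green triangles). Points of a gene lie on the same side of 0 except for Runx2, Tox, Il18rap and Hif1a, and Tcf7, for example, is at 1.81, 1.84 and 4.42.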

How the data were processed

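RNA-seq libraries of OT-I cells were read from the authors' deposited table, which holds whole-number counts per gene and FPKM side by side, per the file headers. The deposited FPKM of the authors served the filter and the limma alternatives. For the OT-I libraries the submitters' processing notes name HISAT2, featureCounts, RSEM and DESeq2 with the build mm10; the sources used here give neither versions nor strand use, so overlapping and antisense genes cannot be separated. No gene listed there has fewer than 20 counts in all.

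Counts of genes averaging at least 1 FPKM in these libraries were tested with edgeR 4.0.16 (R 4.3.3; TMM, quasi-likelihood test, two-sided, Benjamini-Hochberg adjusted p of 0.05, no replicate block). In the trend-removed fits a robust loess surface (span 0.3) of each library over length and GC content was an offset. Alternatives used DESeq2 1.42.0 and limma 3.58.1. The fits were tested on simulated data, where smooth trends were removed and abrupt ones only in part. Symbols were matched to GENCODE M21 (15028 of 15216). The biological coefficient of variation was 0.164.

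Genes were named by rule: the 12 largest called changes in each direction with at least 5 FPKM in the higher group and groups that do not overlap (predicted gene models, names ending in Rik and immunoglobulin or T cell receptor segments left out), the 5 smallest p in each direction, Bcl6, Tcf7, Xcl1, Prdm1 and Havcr2, and up to 4 called members of each gene list, with further members where a sentence needs their value; many of these further members were picked after their values were seen. The members and lists were chosen with earlier results of these data known. The main-transcript fit, the restriction to 1500 bases and the count over all 3 fits were chosen after seeing the data. A few list members are counted but not reported here by name.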

Additional observations from a re-analysis of the deposited data

How the results depend on the processing

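Against 4720 genes called and 2329 called at 2-fold or more, DESeq2's Wald test gave 4787 and 2297, edgeR with DESeq2 size factors 4737 and 2332, and limma on log2(FPKM + 1) 4546 and 1753. Without a filter on low values 7003 and 4655 were called. Of the calls at 2-fold or more, 67.4% were higher, against 40.5% without the filter and 79.3% with limma on log2(FPKM + 1). With length and GC trends removed the 2-fold count was 1486, in the main-transcript fit 1215, and for main transcripts of at least 1500 bases 1362. Leaving out 1 library gave 3252 to 5232 calls and 2031 to 2777 at 2-fold. Of 4650 calls also tested with the trends removed, 3115 kept their call and direction and 51 were called the opposite way; the cause was not tested.

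The replicate numbers are not said to mark a shared animal, and deviations of same-numbered libraries had a correlation of -0.055. With the replicate number as a block, 4621 genes were called and 2336 at 2-fold, and with the block and the trends removed 4674 and 1490.

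Signs turned for few of the named genes. With the trends removed, log2 fold changes were -0.66 for Ccl3, -0.21 for Ccl4, 0.032 for Cd28, 0.23 for Cd8a, 0.095 for Ctla4, 0.19 for Il7r, 0.14 for Mki67 and -0.74 for Nkg7. With the replicate block as well they were -0.67, -0.22, 0.031, 0.23, 0.092, 0.18, 0.13 and -0.73 in the same order. In the main-transcript fit Ccl3 was -0.41, Ccl4 -0.012, Ccl5 -0.041, Cd28 0.11, Cd8a 0.32, Ctla4 0.25, Il7r 0.31 and Nkg7 -0.36. For main transcripts of at least 1500 bases Cd8a was 0.020 and Mki67 0.050, and with no filter 0.00604 and 0.036. Leaving out 1 library, Ifng ranged from -0.33 to 0.032 and Mki67 from -0.36 to 0.16; neither was called with all 4 libraries. The 2 libraries per group limit the precision; total counts were similar, but far more listed genes had no count in the overexpressing libraries.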
